A study of Homo sapiens with 4 samples.

Results

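The genes described here encode 5 ephrin receptors (EPHA1, EPHA2, EPHB2, EPHB3 and EPHB4) and 2 of their ligands (EFNA1 and EFNB2), measured in 4 colorectal cancer cell lines. A chromatin contact was assigned to a gene when one of its anchors, the genomic intervals between which contacts were counted, lay within 5 kb of the gene's transcription start in hg19. Over the 4 lines this rule took 245 of 184225 filtered loops and 22 of 72787 same-anchor pairs. A filtered loop joins different anchors whose midpoints lie at least 5 kb and at most 2 Mb apart, and a same-anchor pair holds the contacts of an anchor with itself. The rule used positions and no measured level.

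The assay was H3K27ac HiChIP, which ligates DNA segments that lie together in fixed nuclei and then enriches those carrying acetylated lysine 27 of histone H3, a mark of active promoters and enhancers. Its unit is the paired-end tag (PET), a sequenced ligation between 2 anchors. The lines were SW620 (a Dukes' type C colorectal adenocarcinoma), SW480 (a Dukes' type B colorectal adenocarcinoma), HCT116 (a colorectal carcinoma) and LS513 (a Dukes' type C colorectal carcinoma), all established lines grown untreated. As background, SW620 and SW480 were derived from the lymph node metastasis and the primary tumour of the same patient. With 1 library per line, no difference could be set against the spread between replicates, and each error given is the counting error of a library.

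Ephrin receptors are receptor tyrosine kinases that bind ephrins on the surface of neighbouring cells, and both the receptor-bearing and the ephrin-bearing cell respond to the contact. A-type ephrins such as EFNA1 are held in the membrane by a lipid anchor and bind mainly EPHA receptors, whereas B-type ephrins such as EFNB2 cross the membrane and bind mainly EPHB receptors. In the intestine EPHB2 and EPHB3 are targets of Wnt signalling, highest at the crypt base, and with B-type ephrins they keep stem, progenitor and differentiated cells in their places.

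Promoter sequences of 4 of these genes are shown, chosen by the largest same-anchor counts of the 7 genes within a line. These were EPHA2 in SW480 (152 PETs), EPHB2 in SW620 (347 PETs), and EFNA1 (702 PETs), then EPHB3 (607 PETs), in LS513. In LS513, EFNB2 (224 PETs) and EPHB4 (182 PETs) also had more PETs than EPHA2 in SW480. The EPHA2 anchor of SW480 began 3.73 kb upstream of the start, so its count does not come from the sequence shown. Each of the 4 sequences runs 5′ to 3′ on the gene's own strand over 300 bases, from 250 before the start to 50 after it. They come from RefSeq on GRCh38.p14, whereas all loop coordinates below are hg19. EPHA2 is at chr1:16156020-16156319 on the minus strand, EPHB2 at chr1:22710588-22710887 on the plus strand, EPHB3 at chr3:184561535-184561834 on the plus strand and EFNA1 at chr1:155127626-155127925 on the plus strand. Capitals mark GATC, the site of MboI, the enzyme that cut the chromatin in this assay.
EPHA2: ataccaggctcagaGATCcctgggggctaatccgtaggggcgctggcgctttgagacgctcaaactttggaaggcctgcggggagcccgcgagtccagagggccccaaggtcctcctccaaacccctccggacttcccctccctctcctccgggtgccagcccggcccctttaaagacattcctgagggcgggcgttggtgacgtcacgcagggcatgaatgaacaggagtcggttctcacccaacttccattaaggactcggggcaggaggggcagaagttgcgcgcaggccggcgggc
EPHB2: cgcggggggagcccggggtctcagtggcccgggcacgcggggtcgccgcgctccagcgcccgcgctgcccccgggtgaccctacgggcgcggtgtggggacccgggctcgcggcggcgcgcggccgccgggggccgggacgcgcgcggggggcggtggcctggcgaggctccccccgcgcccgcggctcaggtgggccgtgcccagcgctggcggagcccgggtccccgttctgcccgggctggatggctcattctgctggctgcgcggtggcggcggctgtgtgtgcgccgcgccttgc
EPHB3: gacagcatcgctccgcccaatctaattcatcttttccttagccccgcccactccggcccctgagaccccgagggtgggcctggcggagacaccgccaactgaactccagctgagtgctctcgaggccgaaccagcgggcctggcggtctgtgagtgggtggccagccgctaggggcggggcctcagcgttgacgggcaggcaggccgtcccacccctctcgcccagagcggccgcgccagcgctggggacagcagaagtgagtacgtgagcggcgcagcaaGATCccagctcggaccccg
EFNA1: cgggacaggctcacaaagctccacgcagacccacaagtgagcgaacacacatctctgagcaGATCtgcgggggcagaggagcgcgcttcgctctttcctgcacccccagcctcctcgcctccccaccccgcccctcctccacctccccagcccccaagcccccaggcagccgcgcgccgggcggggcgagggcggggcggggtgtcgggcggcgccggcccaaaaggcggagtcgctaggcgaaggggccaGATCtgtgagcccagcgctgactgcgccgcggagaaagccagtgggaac

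RefSeq held a promoter for each of the 7 genes. Their GC content ran from 62% in EPHA1 to 83% in EPHB2, above the median of 58.3% over 27326 promoters of the same length. Their CpG counts ran from 20 in EPHA2 to 49 in EPHB2 and in EFNB2, against a median of 14. GATC occurred in 3 of the 7 windows, once in EPHA2, once in EPHB3 and at 2 places in EFNA1, and in 41.8% of all promoters. Neither the TCF/LEF motif searched (CTTTGAT) nor the AP-1 motif (TGANTCA) was found on either strand of the 7 windows. They occurred in 2.64% and 7.77% of all promoters, and a missing match says only that these letters are not in this window.

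Depth differed widely between the libraries. Filtered loops held 152421 PETs in SW620, 13885 in SW480, 81579 in HCT116 and 222113 in LS513, and same-anchor pairs held 844521 PETs in SW620, 130508 in SW480, 863012 in HCT116 and 1386645 in LS513. LS513 was therefore 16 times as deep as SW480 in loops and 10.6 times in same-anchor PETs. Levels are given as normalised PETs, which are PETs per 1000000 PETs of the same table and library, with exact Poisson 95% intervals, which treat PETs as independent although they carry no molecular identifiers. A count of 0 allows up to 3 PETs, which is 19.7 normalised loop PETs in SW620, 216 in SW480, 36.8 in HCT116 and 13.5 in LS513. The anchor sets also differed. HCT116 and LS513 had 21810 anchors with identical ends, 99.5% of those in HCT116 and 98.5% of those in LS513. By contrast 2.15% of SW620 anchors were identical to one in SW480, and 27.5% overlapped one. Of 5 colon epithelial markers, all had an anchor in SW620, HCT116 and LS513 and 4 had one in SW480, where VIL1 had none. PTPRC, MYOD1 and COL1A2, markers of other cell types (leukocytes, muscle and fibroblasts), had no anchor in any line.

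An anchor lay near the start of 5 of the 7 genes in SW620, 3 in SW480, 6 in HCT116 and 6 in LS513. EPHB3, which encodes a B-type receptor, and EFNA1, which encodes an A-type ligand, had an anchor in every line. EPHB2, EPHB4 and EFNB2 had anchors in SW620, HCT116 and LS513, EPHA1 had them in HCT116 and LS513, and EPHA2 had one in SW480. Where a line has no anchor its count is 0 because the tables count only contacts between called anchors, so that such a 0 is not a measured absence of contacts. The 7 member anchors of HCT116 were identical to those of LS513, and no member anchor of SW620 or SW480 was identical to one of another line.

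**Figure D1:**
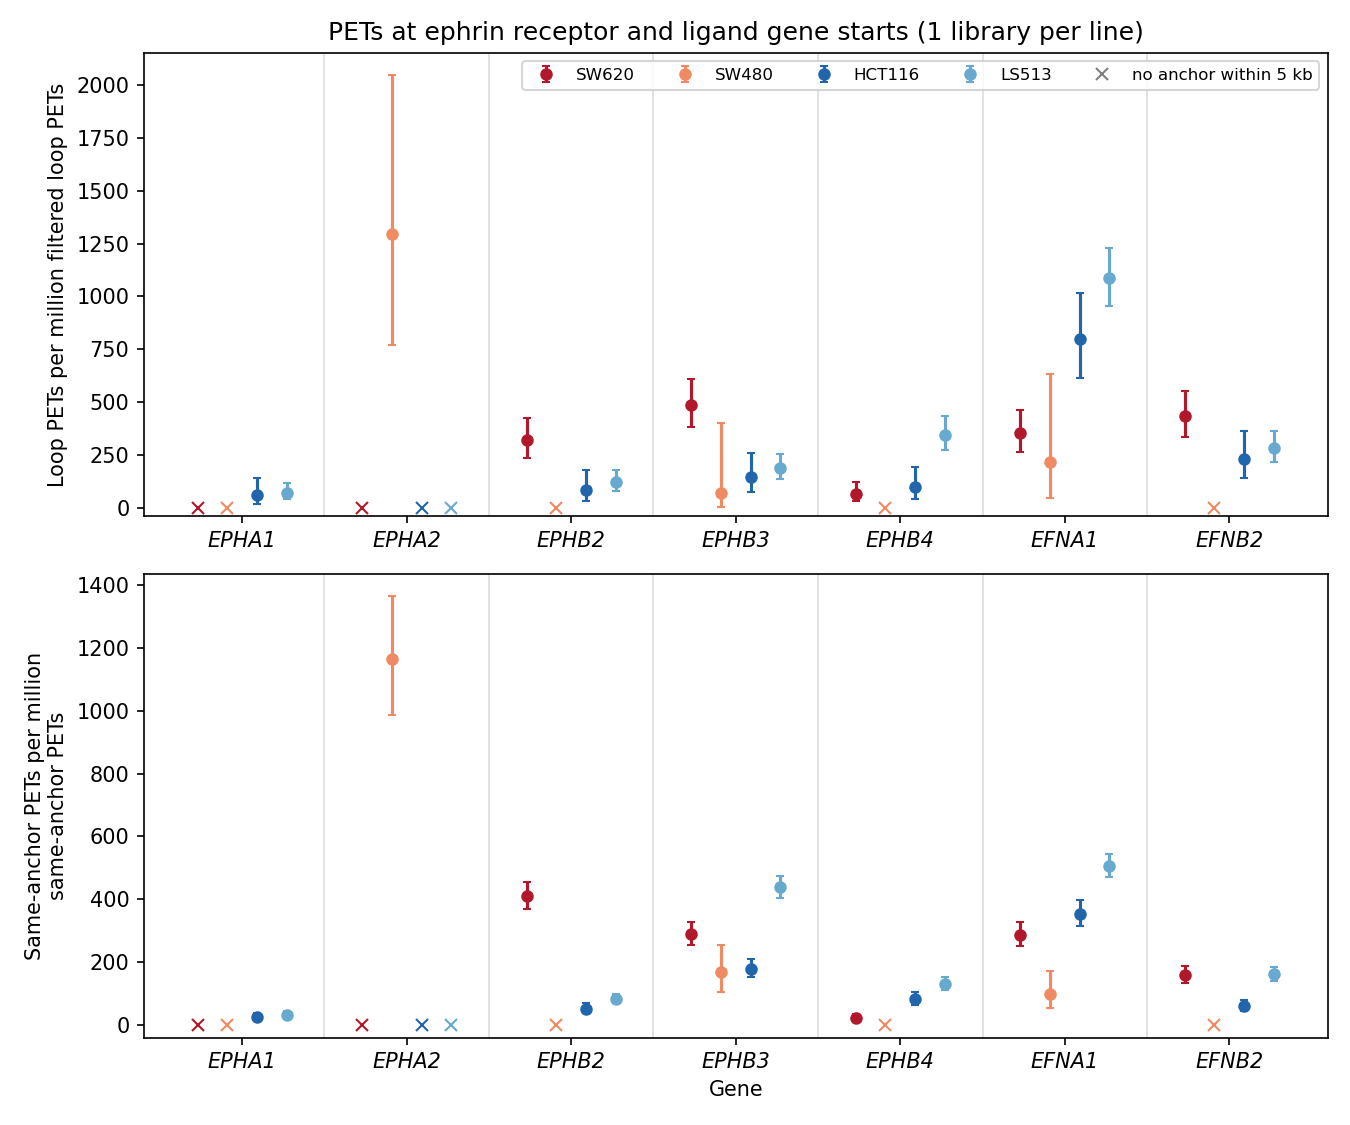
Normalised loop PETs (top) and normalised same-anchor PETs (bottom) at each gene, with 1 point per line and exact Poisson 95% intervals, and crosses where a line has no anchor within 5 kb. EPHA2 has a value in SW480 alone, EPHB2 and EPHB3 loops are highest in SW620, and EPHB4 and EFNA1 loops are highest in LS513.

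**Figure D2:**
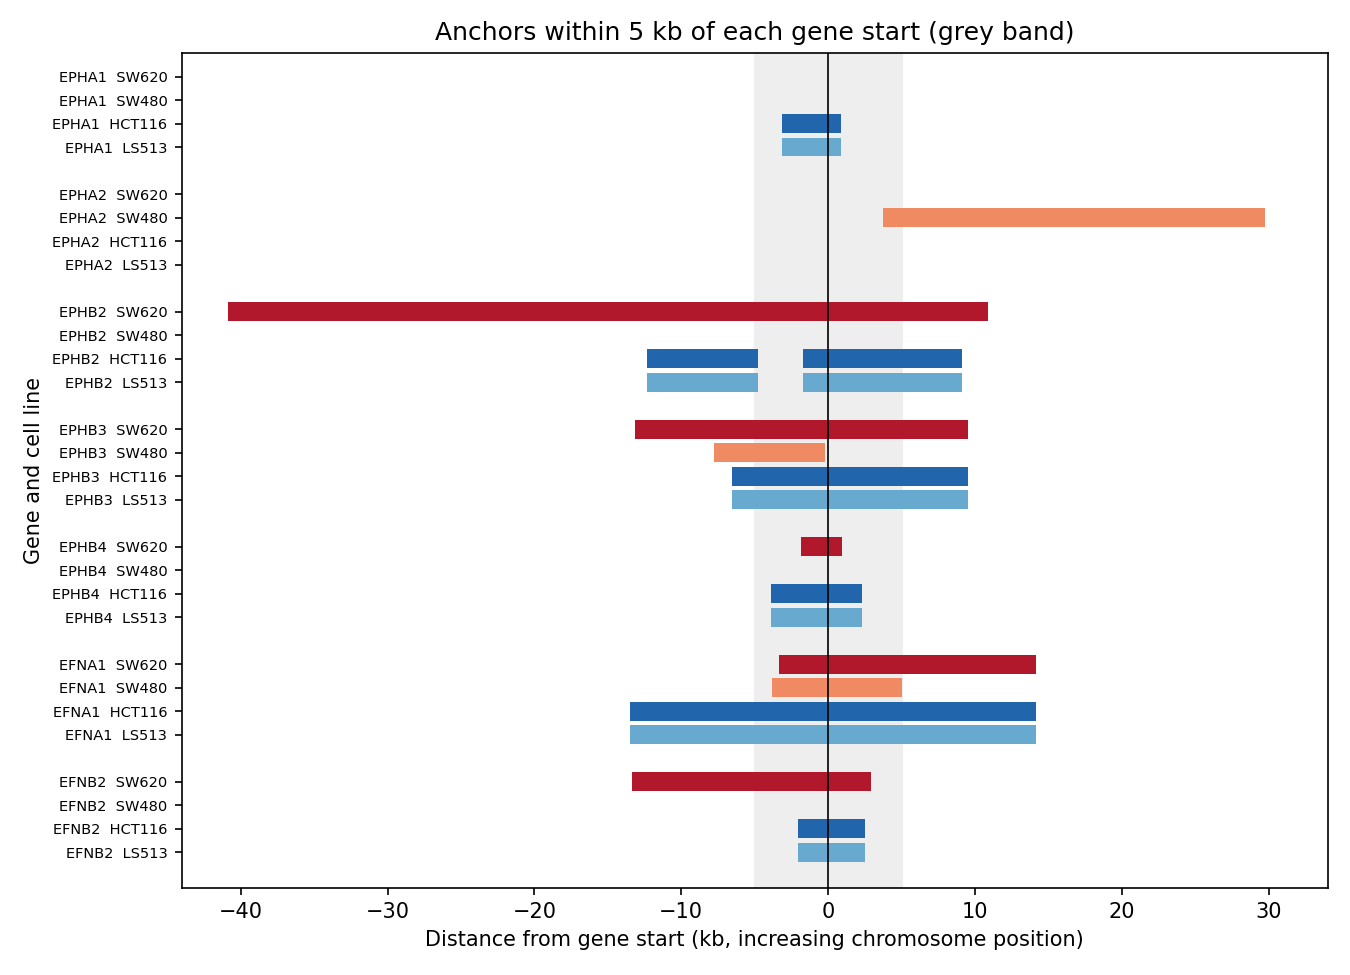
Position of each anchor relative to the gene start in kb of increasing chromosome position, with 1 row per gene and line and a grey band for the 5 kb window. HCT116 and LS513 bars coincide at every gene, the SW620 anchor of EPHB2 is 51.8 kb long, and the SW480 anchor of EPHA2 does not reach the start.

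The lines were compared in 4 pairs by the ratio of their normalised PETs with its exact conditional 95% interval. A gene was called higher or lower where the ratio was at least 2-fold, the interval left out 1 and the line with the higher level had at least 10 PETs, and only genes reaching 10 PETs could be called. For the call and for the medians below, a count of 0 was set to 3 PETs. No fold of a gene is read from it where a line had no anchor. The same rule was run on every 10 kb tile of the genome in place of a gene start. For SW620 against SW480, loop PETs were higher at EPHB3 and EFNB2 and lower at EPHA2, 3 of the 6 genes that could be called, beside 18.8% of 14411 tiles, 9.34% higher and 9.49% lower. For SW620 against LS513, EPHB2 and EPHB3 were higher and EPHA1, EPHB4 and EFNA1 lower, 5 of 6 genes, beside 59.8% of tiles, 33.9% higher and 25.9% lower. For SW620 against HCT116, EPHB2 and EPHB3 were higher and EFNA1 lower, 3 of 4 genes, beside 54.2% of tiles, 35.9% higher and 18.3% lower. For HCT116 against LS513, EPHB4 alone was lower, 1 of 6 genes, beside 18.2% of tiles, 8.68% higher and 9.48% lower. The calls of EFNB2 and EPHA2 against SW480, and of EPHA1 against LS513, rest on a 0 in a line with no anchor at the gene.

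Same-anchor PETs, which reflect the short-range signal at an anchor, gave other sets of calls. SW620 was higher than SW480 at EPHB2, EFNA1 and EFNB2 and lower at EPHA2, 4 of 6 genes, beside 51.6% of tiles, 33.5% higher and 18.1% lower. SW620 was higher than LS513 at EPHB2 and lower at EPHA1 and EPHB4, 3 of 6 genes, beside 66.5% of tiles, 35.5% higher and 31.1% lower. SW620 was higher than HCT116 at EPHB2 and EFNB2 and lower at EPHA1 and EPHB4, 4 of 6 genes, beside 67.5% of tiles, 34.5% higher and 33% lower. HCT116 was lower than LS513 at EPHB3 and EFNB2, 2 of 6 genes, beside 25.3% of tiles, 17.3% higher and 7.93% lower. The calls of EPHB2, EFNB2 and EPHA2 against SW480, and of EPHA1 against LS513 and HCT116, rest on a 0 in a line with no anchor at the gene. Beside backgrounds this wide, and with so few genes, the counts are not a result about this family. The 3 comparisons with SW620 share its library, and LS513 and HCT116 each stand in 2 comparisons.

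Where both lines had the same anchors, the median log2 ratio of HCT116 to LS513 over the callable genes was -0.40 for loops, against -0.29 over tiles, and -0.69 for same-anchor PETs, against 0.16 over tiles. None of the 6 callable genes was called higher in HCT116 than in LS513 by either measure. Of tiles, 8.68% were called higher for loops and 17.3% for same-anchor PETs. With 6 genes, no such call is not a result about them. In the pairs with SW620 the medians went different ways. For loops the median over the callable genes was 0.64 for SW620 against SW480, with -0.52 over tiles, 1.31 against HCT116, with 0.70 over tiles, and -0.50 against LS513, with 0.06 over tiles. For same-anchor PETs it was 1.15 against SW480, with 0.31 over tiles, 0.20 against HCT116, with -0.05 over tiles, and -0.71 against LS513, with -0.04 over tiles. A count of 0 was set to 3 PETs in these medians, for genes and tiles alike. Against SW480 the values of EPHA2, EPHB2, EPHB4 and EFNB2 come from such a 0 in a line with no anchor. EPHB4, with 10 loop PETs in SW620 and 0 in SW480, entered the loop median at -1.72. The medians against SW480 therefore do not measure a difference between the lines.

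**Figure D3:**
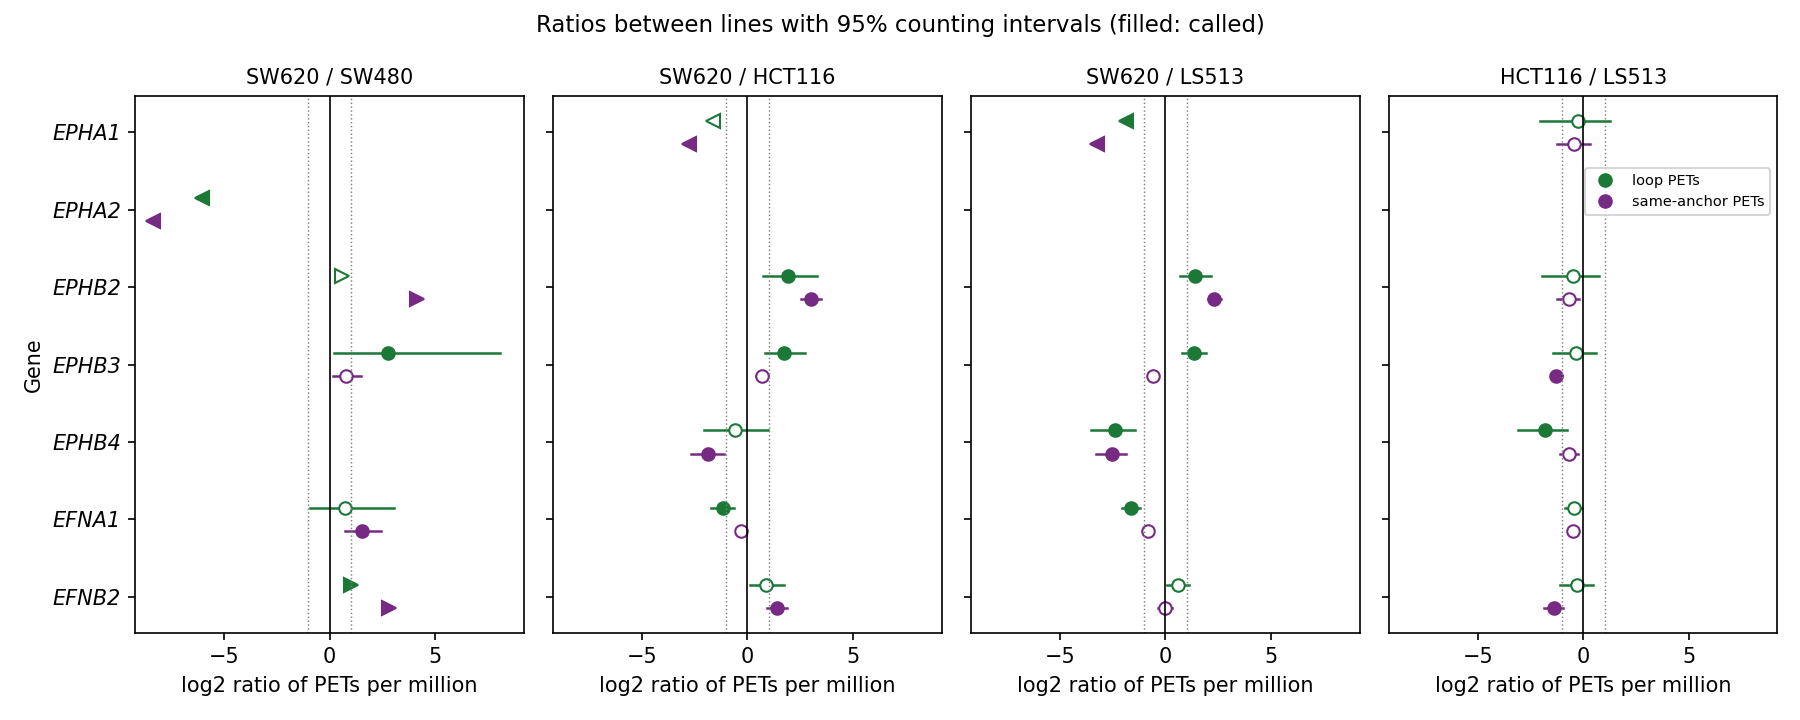
Log2 ratio of normalised PETs between the lines of each pair, the first line over the second, for loop PETs (green) and same-anchor PETs (purple), with 95% counting intervals. Filled symbols meet the call rule, triangles set a count of 0 to 3 PETs in a line with no anchor at the gene and are no bounds, and dotted lines mark 2-fold. EPHB2 lies to the right in SW620 against both HCT116 and LS513, and EPHB4 lies to the left in SW620 against LS513 for both measures.

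EPHB2, a crypt receptor and Wnt target, had its highest levels in SW620. It had 321 normalised loop PETs in SW620 (49 PETs, interval 238 to 425), 0 in SW480, 85.8 in HCT116 (7 PETs, 34.5 to 177) and 122 in LS513 (27 PETs, 80.1 to 177). The SW620 interval lay above those of HCT116 and LS513, which overlapped each other, while the 0 of SW480 has an interval of 0 to 266 that overlaps that of SW620. Loop PETs were 3.75-fold higher in SW620 than in HCT116 (interval 1.69 to 9.80) and 2.64-fold higher than in LS513 (1.62 to 4.40). Normalised same-anchor PETs were 411 in SW620 (347 PETs), 0 in SW480, 51.0 in HCT116 (44 PETs) and 82.9 in LS513 (115 PETs). The SW620 level was 8.06-fold that of HCT116 (5.88 to 11.3) and 4.95-fold that of LS513 (4.0 to 6.17), and it exceeded the level at 97.2% of SW620 tiles with an anchor.

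The EPHB2 anchor itself was much longer in SW620. It was 51.8 kb long there, at chr1:22996107-23047910, against 2 anchors with a summed length of 18.4 kb in both HCT116 and LS513. Per kb of anchor the same-anchor ratio was 2.86 for SW620 over HCT116 and 1.76 for SW620 over LS513, and the call against LS513 was lost. Normalised loop PETs per kb of anchor were 6.21 in SW620, 4.67 in HCT116 and 6.62 in LS513, so that SW620 was not the highest line on that scale. Keeping only anchors that reach within 1 kb of the start left out the upstream anchor of HCT116 and LS513. SW620 kept all 347 PETs of its 51.8 kb anchor, against 15 PETs in HCT116 and 57 in LS513 at an anchor of 10.8 kb. The ratio was then 23.6 for SW620 over HCT116 and 10.0 for SW620 over LS513, but it compares unlike lengths. The nearest SW480 anchor ended 6.18 kb from the start, outside the 5 kb window. At the SW620 rate, 53.6 same-anchor PETs and 4.46 loop PETs would stand in a library of the depth of SW480. The 0 of SW480 at this window gives no fold. With the window widened to 10 kb SW480 had 4 same-anchor PETs, and the ratio became 13.4 (5.19 to 49.5).

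The leading EPHB2 loop of SW620 ended inside the gene. It held 27 of its 49 PETs and joined the 51.8 kb anchor over the start, chr1:22996107-23047910, to chr1:23052482-23084474. The midpoint of that partner lay 31.5 kb into a gene that is 210.7 kb long in RefSeq. Both anchors are broad and lie close together, so the counts do not show where within them the contacts lay. Here and below, overlaps with a leading loop were sought only among loops assigned to the same gene. Overlapping loops held 2 PETs in HCT116 and 10 PETs in LS513. The top single loop in LS513, with 8 PETs, ended at chr1:23071083-23084474. Of the PETs from the EPHB2 start, 85.7% went to the gene side in SW620, all 7 in HCT116 and 88.9% in LS513.

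EPHB3, the other crypt receptor, had anchors in all lines and its highest loop level in SW620. It had 485 normalised loop PETs in SW620 (74 PETs, interval 381 to 609), 72.0 in SW480 (1 PET, 1.82 to 401), 147 in HCT116 (12 PETs, 76.0 to 257) and 189 in LS513 (42 PETs, 136 to 256). HCT116 and LS513 overlapped, and the single PET of SW480 left its level within a wide range. Loop PETs were 3.30-fold higher in SW620 than in HCT116 (1.78 to 6.67) and 2.57-fold higher than in LS513 (1.74 to 3.84). Per kb of anchor, normalised loop PETs were 21.4 in SW620, 9.17 in HCT116 and 11.8 in LS513. On that scale SW620 was less than 2-fold above LS513. The ratio of SW620 to SW480 was 6.74 with an interval of 1.17 to 269.8, and it lost its call when loops of 1 PET were left out.

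Same-anchor PETs at EPHB3 followed another order. In normalised PETs they were 289 in SW620 (244 PETs), 169 in SW480 (22 PETs), 178 in HCT116 (154 PETs) and 438 in LS513 (607 PETs). LS513 was highest, and HCT116 and SW480 differed by less than their intervals. HCT116 was lower than LS513, with a ratio of 0.408 (0.339 to 0.487) at an identical anchor. The ratio of SW620 to LS513 was 0.660 (0.567 to 0.767), short of 2-fold. The SW620 anchor was 22.6 kb long against 16 kb in HCT116 and LS513, and per kb that ratio was 0.468 (0.401 to 0.543) and was called lower. At EPHB3, therefore, SW620 had more normalised loop PETs but fewer normalised same-anchor PETs than LS513. In SW480 the EPHB3 anchor ended 0.232 kb before the start.

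The share of EPHB3 loop PETs on the gene side was higher in SW620 than in LS513. In SW620, 63 of 74 PETs (85.1%, exact binomial interval 75.0 to 92.3) went to the gene side, in HCT116 8 of 12 (66.7%, 34.9 to 90.1), and in LS513 16 of 42 (38.1%, 23.6 to 54.4). The SW620 and LS513 intervals did not overlap, and that of HCT116 overlapped both. These intervals treat PETs as independent, although many PETs fall in the same loop. Counted by loop, 11 of 17 went to the gene side in SW620, 3 of 6 in HCT116 and 9 of 20 in LS513. The gene is 20.6 kb long in RefSeq, so the main partners lay beyond its end. One partner region was held by 3 lines, at chr3:184427763-184437391 in SW620 with 13 PETs (85.3 normalised) and at chr3:184426984-184432227 in HCT116 with 5 PETs (61.3 normalised) and in LS513 with 5 PETs (22.5 normalised). A farther partner at chr3:184502155-184510977, 227 kb from the start, held 12 PETs in SW620, and no EPHB3 loop of the other lines overlapped it. The top loop of LS513 pointed upstream, to chr3:184031054-184036630, with 7 PETs, and loops overlapping it held 2 PETs in SW620 and 2 in HCT116.

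**Figure D4:**
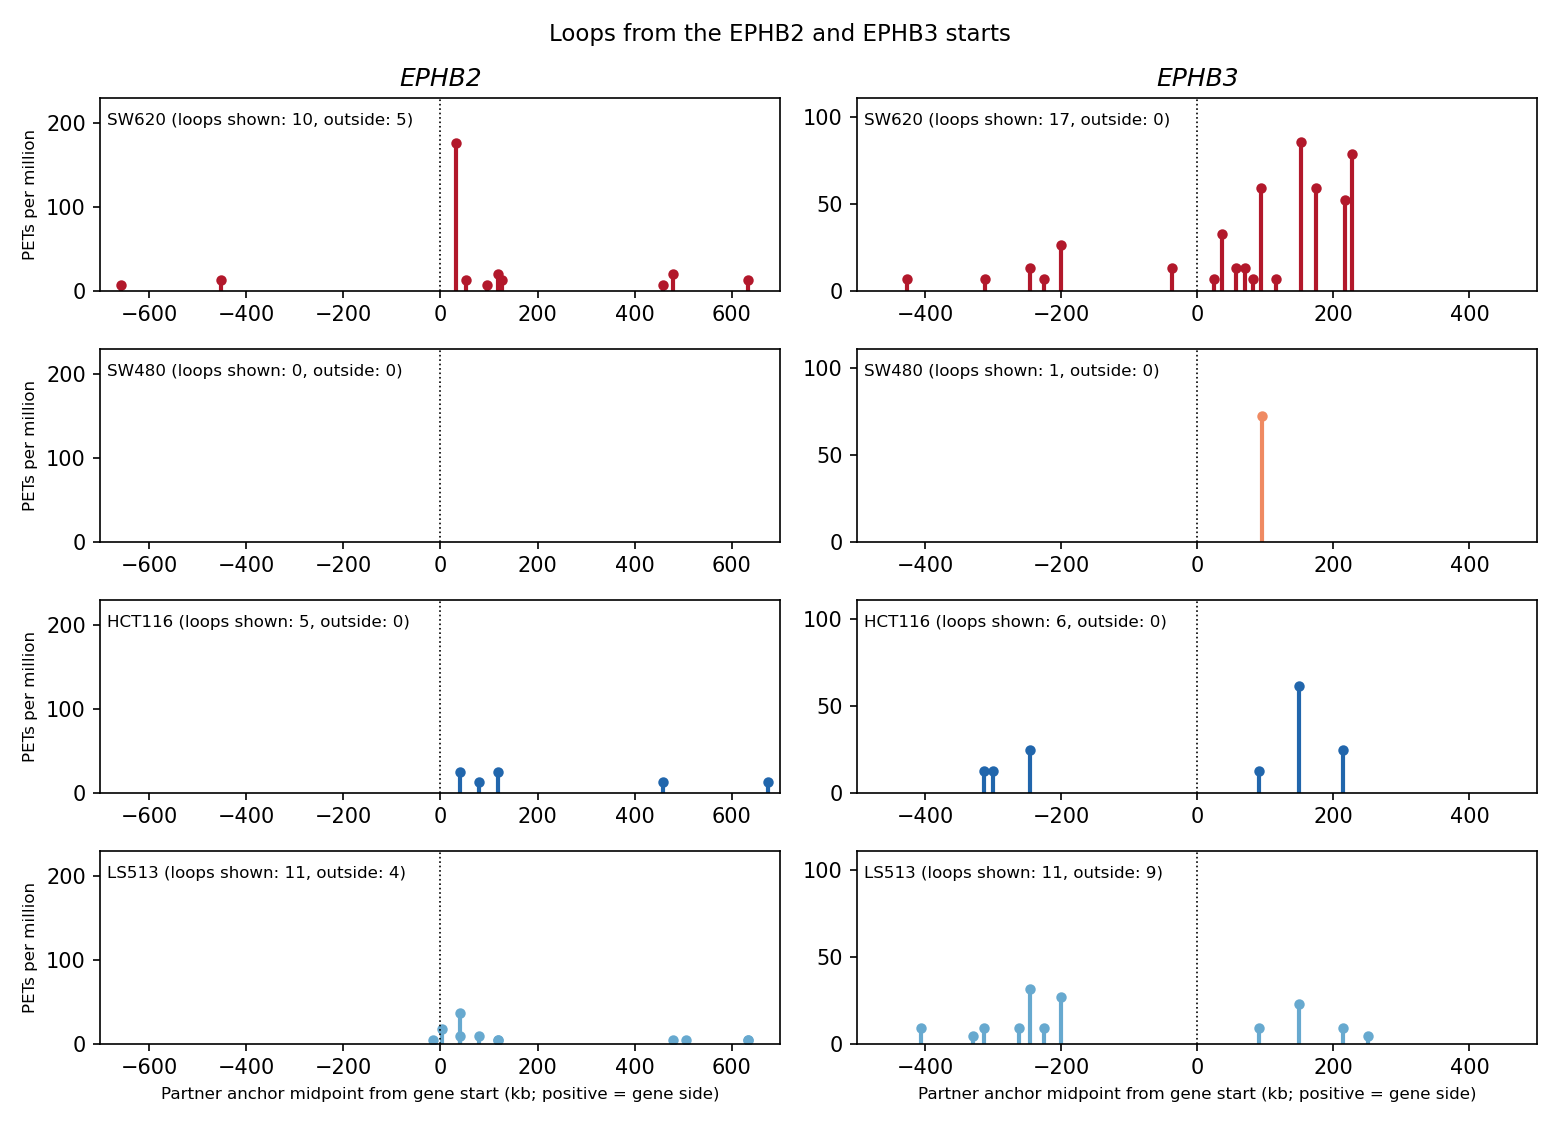
Normalised loop PETs for each partner anchor of EPHB2 and EPHB3, by the distance of the partner's midpoint from the gene start in kb, with positive values on the gene side. In SW620 the EPHB2 signal is led by 1 partner 31.5 kb into the gene. Most EPHB3 signal lies on the gene side in SW620 and upstream in LS513.

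EPHB4, the main receptor of EFNB2 and best known from the separation of arteries and veins, was highest in LS513. It had 65.6 normalised loop PETs in SW620 (10 PETs, interval 31.5 to 121), 0 in SW480, 98.1 in HCT116 (8 PETs, 42.3 to 193) and 347 in LS513 (77 PETs, 274 to 433). LS513 stood above both SW620 and HCT116, whose intervals overlapped. The loop ratio was 0.189 for SW620 over LS513 (0.0873 to 0.367) and 0.283 for HCT116 over LS513 (0.118 to 0.586). With loops of at least 2 PETs the ratio was 0.107 for SW620 over LS513 (0.0336 to 0.260) and 0.0891 for HCT116 over LS513 (0.0106 to 0.334). At a false discovery rate under 0.01 the gene kept 2 PETs in SW620, 0 in HCT116 and 41 in LS513. Normalised same-anchor PETs were 22.5 in SW620 (19 PETs), 0 in SW480, 82.3 in HCT116 (71 PETs) and 131 in LS513 (182 PETs). SW620 was lower than LS513, with a ratio of 0.171 (0.101 to 0.275), and lower than HCT116, with a ratio of 0.273 (0.156 to 0.459). The SW620 anchor was 2.81 kb long against 6.23 kb in HCT116 and LS513, and per kb the ratio to HCT116 was 0.607 and was not called.

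The EPHB4 loops of LS513 were spread over several partners on both sides of the start. The 2 largest held 13 PETs each, at chr7:100301793-100306136, 121 kb away on the gene side, and at chr7:100447945-100452561, 25.3 kb upstream. The first was overlapped by loops with 0 PETs in SW620 and 1 PET in HCT116, and the second by none in either. The nearest SW480 anchor lay 36.0 kb from the start. With 0 PETs at that depth no fold against SW480 can be given, since SW620's rate would place 0.911 loop PETs and 2.94 same-anchor PETs in such a library.

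EPHA1, a receptor of epithelial cells, had low levels where it was measured. It had no anchor in SW620, where the nearest lay 22.7 kb away, and none in SW480, where the nearest lay 25.3 kb away. HCT116 had 61.3 normalised loop PETs (5 PETs, interval 19.9 to 143) and LS513 had 72.0 (16 PETs, 41.2 to 117), and these did not differ beyond their intervals. Normalised same-anchor PETs were 24.3 in HCT116 (21 PETs) and 33.2 in LS513 (46 PETs), above 43.8% of anchored tiles in HCT116 and 58.0% in LS513. SW620 had 0 PETs by both measures, and with no anchor there no fold is given. A loop joined the start to chr7:143075047-143081194, 27.9 kb away on the gene side and beyond the end of a gene 17.7 kb long. It held 2 of 5 PETs in HCT116 and 14 of 16 PETs in LS513.

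EPHA2, the best known receptor of EFNA1, had an anchor in SW480 and in no other line. SW480 had 1296 normalised loop PETs (18 PETs, interval 768 to 2049) and 1165 normalised same-anchor PETs (152 PETs), and both measures were 0 in SW620, HCT116 and LS513. The same-anchor count stood above that of 98.6% of SW480 tiles with an anchor, in the shallowest library of the study. No fold is given against lines with no anchor. The nearest anchor lay 35.3 kb from the start in SW620 and 32.5 kb in HCT116 and LS513.

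The EPHA2 anchor of SW480 did not cover the start. It ran for 26.0 kb at chr1:16486729-16512726 and began 3.73 kb upstream, so with a window of 1 kb the gene had no value in any line. ARHGEF19 is the next gene on that side in RefSeq, and the tables do not say which start the anchor belongs to. Its leading loop held 14 of the 18 PETs and crossed the EPHA2 start to chr1:16464044-16475245, whose midpoint lay 13.4 kb into a gene that is 31.7 kb long. The false discovery rate of that loop in the authors' deposited table was 4.8e-08.

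EFNA1, the ligand that binds EPHA2 and other A-type receptors, had the most loop PETs of the 7 genes in HCT116 and LS513. It had 354 normalised loop PETs in SW620 (54 PETs, interval 266 to 462), 216 in SW480 (3 PETs, 44.6 to 631), 797 in HCT116 (65 PETs, 615 to 1016) and 1085 in LS513 (241 PETs, 952 to 1231). Those levels exceeded 91.0% of anchored tiles in SW620, 98.0% in HCT116 and 99.0% in LS513. SW620 was lower than LS513, with a ratio of 0.327 (0.238 to 0.440), and lower than HCT116, with a ratio of 0.445 (0.304 to 0.648). The second of these calls was lost when levels were taken per PET of the same chromosome (0.566) or per PET of all same-chromosome pairs (0.782). The anchor was 17.5 kb long in SW620 against 27.7 kb in HCT116 and LS513. Per kb of anchor, normalised loop PETs were 20.2 in SW620, 28.8 in HCT116 and 39.2 in LS513. On that scale SW620 was less than 2-fold below either line. The ratio of HCT116 to LS513 was 0.734 (0.550 to 0.969), and that of SW620 to SW480 was 1.64 (0.532 to 8.20).

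Normalised same-anchor PETs at EFNA1 were 288 in SW620 (243 PETs), 99.6 in SW480 (13 PETs), 355 in HCT116 (306 PETs) and 506 in LS513 (702 PETs). SW620 was 2.89-fold higher than SW480 (1.66 to 5.50). Its anchor was 17.5 kb long in SW620 and 8.86 kb in SW480, and per kb the ratio was 1.46 and was not called. Between SW620, HCT116 and LS513 no same-anchor ratio reached 2-fold.

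The leading EFNA1 partner differed between lines. In SW620 it was chr1:155144110-155169151, on the gene side, with 16 PETs, and loops overlapping it held 1 PET in SW480, 3 in HCT116 and 23 in LS513. In HCT116 it was chr1:155138393-155141362, with 12 PETs, and LS513 had 20 PETs there and SW620 and SW480 none. A loop to chr1:155048524-155060623, upstream, held 6 PETs in HCT116 and led in LS513 with 61 PETs. That anchor holds the start of EFNA3, another A-type ligand, 49 kb from the EFNA1 start. Loops of SW620 that overlapped it held 2 PETs. Loops between the EFNA1 and EFNA3 starts held 0 PETs in SW480, 6 in HCT116 (73.5 normalised) and 69 in LS513 (311 normalised). SW620 had no anchor within 5 kb of the EFNA3 start, and its nearest lay 5.56 kb away. Loops between EFNA1 and EFNA4, the third A-type ligand of this cluster, held 1 PET in SW620, 0 in SW480, 0 in HCT116 and 15 PETs in LS513. In LS513 EFNA3 and EFNA4 share 1 anchor, and the loop to it is counted in both the 69 and the 15 PETs.

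EFNB2, the ligand of EPHB4 and of the crypt EPHB receptors, had most of its loop PETs at long range. It had 433 normalised loop PETs in SW620 (66 PETs, interval 335 to 551), 0 in SW480, 233 in HCT116 (19 PETs, 140 to 364) and 284 in LS513 (63 PETs, 218 to 363). The intervals of HCT116 and LS513 overlapped, and those of SW620 overlapped with both. The ratio of SW620 was 1.86 to HCT116 (1.10 to 3.28) and 1.53 to LS513 (1.06 to 2.19), short of 2-fold. The nearest SW480 anchor lay 64.0 kb away, so no fold is given against SW480, and the loop call there, on the threshold, was lost when loops of 1 PET were left out. Normalised same-anchor PETs were 159.9 in SW620 (135 PETs), 0 in SW480, 61.4 in HCT116 (53 PETs) and 162 in LS513 (224 PETs). SW620 was 2.60-fold higher than HCT116 (1.88 to 3.65) and at 0.990 of the LS513 level (0.793 to 1.23).

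Anchor length and chromosome totals moved with the EFNB2 values. The SW620 anchor was 16.2 kb long against 4.56 kb in HCT116 and LS513. Per kb the same-anchor ratio of SW620 to HCT116 was 0.731 (0.528 to 1.02), the other direction. The ratio of SW620 to LS513 was 0.278 per kb (0.223 to 0.346), called lower, and 1.84 per PET of chromosome 13 (1.47 to 2.29), not called. Chromosome 13, which carries EFNB2, held 1.79% of same-anchor PETs in SW620, 2.31% in SW480, 1.52% in HCT116 and 3.34% in LS513. HCT116 was lower than LS513 in same-anchor PETs, with a ratio of 0.380 (0.276 to 0.515). Per PET of chromosome 13 that ratio was 0.836 (0.608 to 1.13) and the call was lost, while the loop ratio of SW620 to LS513 became 2.50 (1.74 to 3.59) and was called. Per kb of anchor, normalised loop PETs were 26.7 in SW620, 51.1 in HCT116 and 62.2 in LS513. On that scale SW620 was below both lines in loops.

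Most EFNB2 loop PETs spanned more than 300 kb. This held for 53 of 66 PETs in SW620 (80.3%), 17 of 19 in HCT116 (89.5%) and 56 of 63 in LS513 (88.9%), while this held for 16% of all loop PETs in SW620, 16.8% in HCT116 and 17.1% in LS513. The median span weighted by PETs was 402 kb in SW620, 386 kb in HCT116 and 434 kb in LS513 at EFNB2, while over all loops it was 67.7 kb in SW620, 66.8 kb in HCT116 and 72.5 kb in LS513. Most PETs went to the gene side, 95.5% in SW620, 84.2% in HCT116 and 93.7% in LS513, and since the gene is 45.9 kb long the partners lay far beyond its end. The same distal partners recurred. A first lay at chr13:106735492-106762764 in SW620 with 20 PETs (131 normalised) and at chr13:106747170-106759895 in HCT116 with 5 PETs (61.3 normalised) and in LS513 with 30 PETs (135 normalised). A second lay at chr13:106795181-106816423 in SW620 with 9 PETs and at chr13:106795627-106806493 in HCT116 with 7 PETs and in LS513 with 17 PETs. Another SW620 partner at chr13:106818496-106840313 held 9 PETs, and no loop assigned to EFNB2 in HCT116 or LS513 overlapped it.

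**Figure D5:**
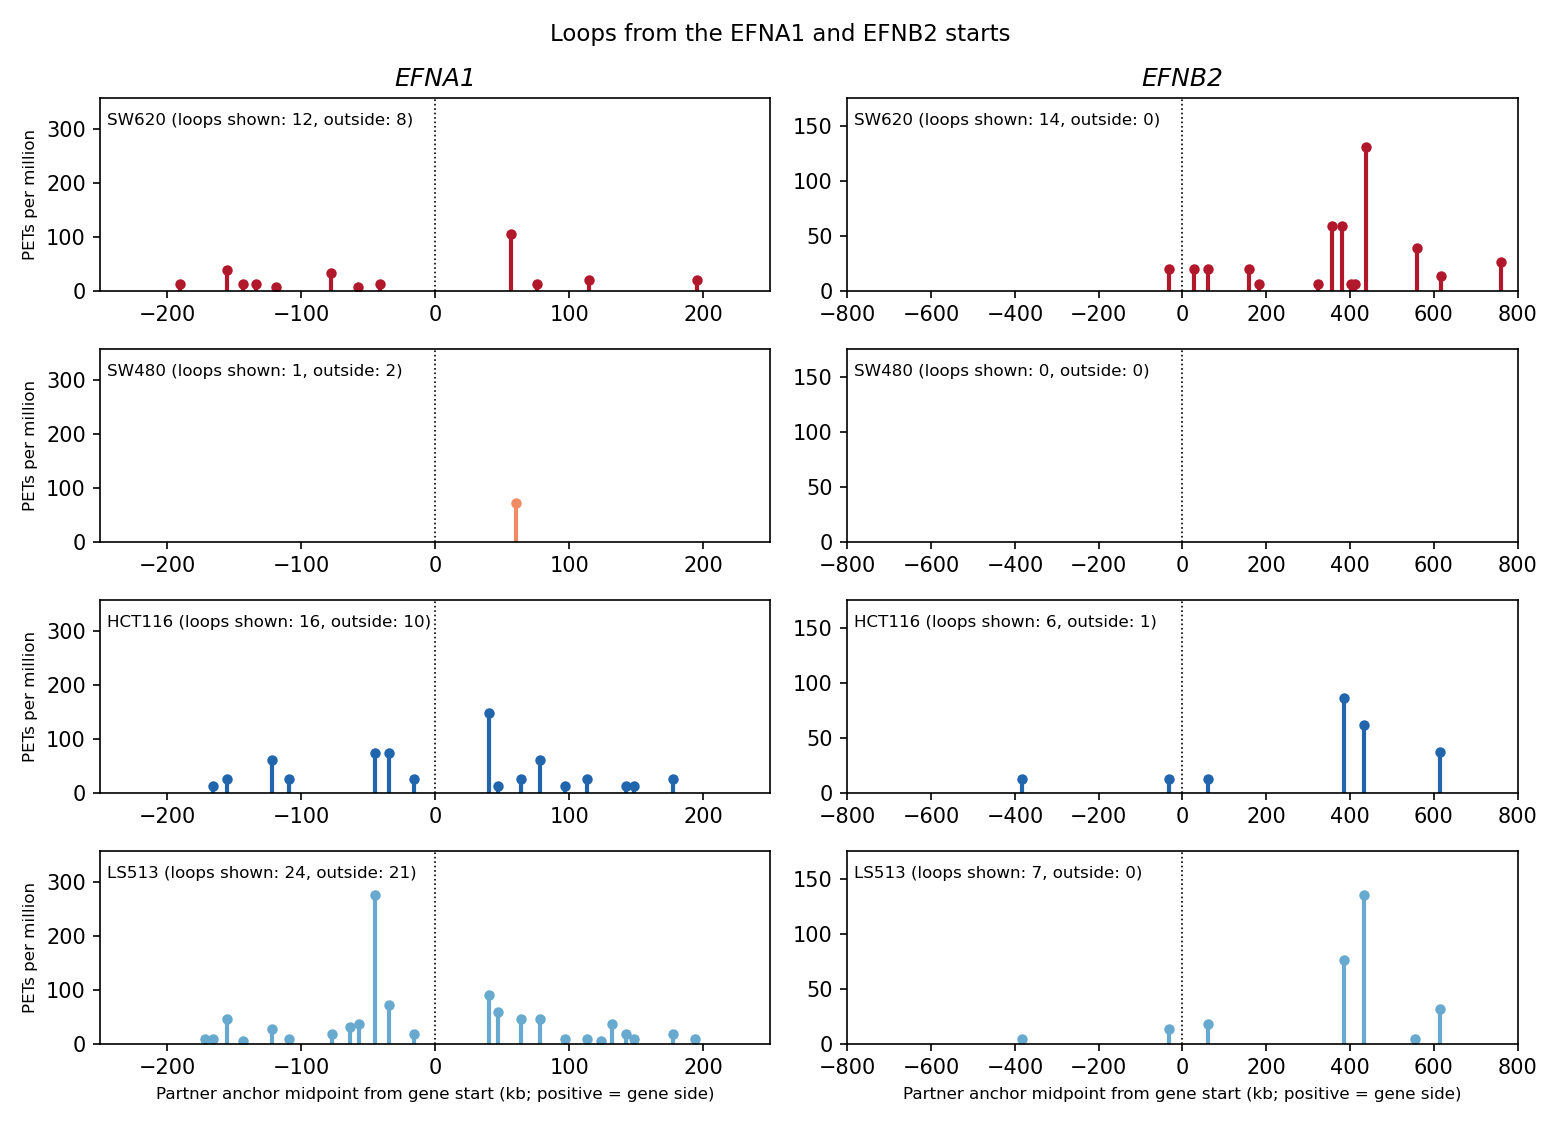
Normalised loop PETs for each partner anchor of EFNA1 and EFNB2, by the distance of the partner's midpoint from the gene start in kb, with positive values on the gene side. EFNA1 partners lie on both sides and the highest LS513 bar is the anchor at the EFNA3 start, while EFNB2 partners in SW620, HCT116 and LS513 recur at like distances far to the gene side.

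Across the 7 genes, a loop of one line was often found in another, with both of its anchors overlapping by at least 1 bp. A loop of these genes was sought only among the other line's loops of the same gene. For the shares over all loops, every loop of the other line was searched. The shares of the 7 genes can therefore miss overlaps with anchors outside the 5 kb window, and the 2 kinds of share are not strictly alike. Of SW620 loops, 39 of 73 (53.4%) were found in LS513 and 26 (35.6%) in HCT116, beside 36.4% and 25.3% of all SW620 loops, while 2 (2.74%) were found in SW480, beside 5.51%. Of HCT116 loops, 40 of 55 (72.7%) were found in LS513, beside 62.1%, and of LS513 loops 40 of 108 (37.0%) were found in HCT116, beside 34%. The depths differ and HCT116 and LS513 share anchors, and the part of either in these shares was not tested. Of the 9 SW480 loops, 2 (22.2%) were found in SW620, beside 46.9% of all SW480 loops, and 5 of the 9 belonged to EPHA2.

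The other 15 genes of the family, further receptors and ligands of both types, were counted in the same way. No anchor lay near 7 of them in any line (EPHA3, EPHA5, EPHA6, EPHA7, EPHA8, EPHA10 and EPHB1). At least 10 loop PETs in a line were found at 6 (EPHA4, EPHB6, EFNA2, EFNA3, EFNA4 and EFNB1), and EFNA5 and EFNB3 reached 10 in same-anchor PETs. Loop PETs were higher in SW620 than in LS513 at 2 (EPHA4 and EPHB6) and lower at 2 (EFNA3 and EFNA4), out of 6 that could be called, beside 59.8% of tiles. Against HCT116 they were higher in SW620 at 3 (EPHA4, EPHB6 and EFNB1) and lower at 2 (EFNA3 and EFNA4), out of 6, beside 54.2% of tiles, and against SW480 none of 5 was called, beside 18.8%. HCT116 was lower than LS513 at 3 of 4 (EFNA2, EFNA3 and EFNA4), beside 18.2% of tiles, 9.48% lower. EFNA3 and EFNA4 share 1 anchor in HCT116 and LS513, so their counts and calls are not separate. EFNA3 had 0 loop PETs in SW620, 3 in SW480, 62 in HCT116 and 458 in LS513. The nearest SW620 anchor lay just outside the window, 5.56 kb from a start that was entered to the nearest kb. In same-anchor PETs, SW620 was higher at 2 of 7 (EPHB6 and EFNB3) and lower at 3 (EFNA3, EFNA4 and EFNA5) against LS513, beside 66.5% of tiles, and the same genes were called in the same directions against HCT116, which shares the SW620 library, beside 67.5%. Against SW480, SW620 was higher at 3 of 6 (EPHB6, EFNA2 and EFNB1) and lower at EFNA3, beside 51.6% of tiles. HCT116 was lower than LS513 at 3 of 6 (EFNA2, EFNA3 and EFNB1), beside 25.3% of tiles, 7.93% lower. The calls of EFNA3 and EFNA5 in SW620, of EPHB6 and EFNB1 against SW480 and of EFNB3 rest on a 0 in a line with no anchor. EPHB6, a receptor whose kinase domain lacks catalytic activity, had 152 same-anchor PETs in SW620, 0 in SW480, 49 in HCT116 and 119 in LS513.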

How the data were processed

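Libraries of H3K27ac HiChIP were made from 4 lines, 1 library each, grouped by the cell line in their titles. Per the labels' protocols, formaldehyde-fixed chromatin was digested by MboI, biotin-filled and ligated before the immunoprecipitation, and Tn5 built the libraries. HiC-Pro and hg19 are named, per the submitters' processing notes. Neither the loop caller nor the origin of the anchors is given there or in the labels.

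Deposited values were whole-number counts of PETs for pairs of anchors on the same chromosome (all pairs, and the filtered pairs) and on different chromosomes. A further table of the authors adds a p-value adjusted to a false discovery rate for each loop. Its column has no header, and it was read so from its values. Chromosomes 1 to 22 and X were used.

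Computed from these counts were normalised PETs (per 1000000 PETs of the same table), exact Poisson intervals, and ratios of the lines with exact conditional (Clopper-Pearson) 95% intervals. A count of 0 was set to 3 for the call and for the medians of log2 ratios. No significance test was possible with 1 library per line. The call rule needed 2-fold, an interval leaving out 1 and 10 PETs, with 10 kb tiles as background. The code was tested on simulated data with known changes.

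The members and gene lists were chosen with earlier results of these data known. All 7 genes are named with every line's values, with the leading loop per line. Of the other family genes, those with at least 10 PETs are named. Partner anchors were given no gene unless a family start lay within 5 kb. Starts of the 15 other family genes and of the markers were entered to the nearest kb from general knowledge of hg19, since no hg19 annotation was used. For EPHB6, EPHA8, EPHA6, EPHB1, EFNA3 and EFNA4 the distance to one of the 7 genes differed by at most 0.78 kb from that in GRCh38.p14. Over many Mb, that of EPHA3 to EPHB3 differed by 331 kb and that of EPHA10 to EPHB2 by 139.7 kb, and the remaining starts were not checked in this way. The result of 1 further marker on the list of other cell types is not reported here. Gene lengths, neighbours and promoters are from RefSeq on GRCh38.p14, and no coordinates were converted. Alternatives covered the window, the minimum of PETs, the scaling, anchor length, overlapping anchors and the authors' false discovery rate. Scripts ran under Python 3.11.15 with scipy 1.17.1 (intervals), pandas 2.3.3, numpy 2.4.6 and matplotlib 3.10.9.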

Additional observations from a re-analysis of the deposited data

Results flagged for a closer look

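PETs joining a member anchor to another chromosome enter none of the comparisons. They exceeded the 3 that a count of 0 allows at each of the genes in some line. That limit takes no account of depth or anchor length, and no share over all anchors was computed. Passing it is therefore not a result about these genes. EPHB2 had 31 such PETs in SW620, 6 in HCT116 and 13 in LS513. EPHB3 had 16 in SW620 and 39 in LS513. EFNA1 had 16 in SW620, 4 in SW480, 16 in HCT116 and 40 in LS513. EFNB2 had 7 in SW620 and 8 in LS513. EPHA1 had 6 in LS513, EPHA2 had 4 in SW480 and EPHB4 had 7 in LS513. No single pair of anchors held more than 2 of these PETs. The libraries held 56541 interchromosomal PETs in SW620, 3988 in SW480, 30620 in HCT116 and 66606 in LS513. What these PETs are was not tested.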

How the results depend on the processing

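The alternatives were scaling by all same-chromosome PETs or by chromosome, windows of 1 and 10 kb, no minimum of PETs, loops of at least 2 PETs, the authors' false discovery rate under 0.01, anchors overlapping the other library, and levels per kb of anchor. Of the ratios recomputed, 305 moved by less than their counting interval, 31 moved further and 1 turned round. Some of the 305 could not move. Dropping the minimum of PETs changes no ratio. At the identical anchors of HCT116 and LS513, neither overlapping anchors nor levels per kb can change one. Ratios left with no value, such as EPHA2 against SW480 with a window of 1 kb, are not counted. The 305 therefore do not measure how stable the ratios are. The one that turned was the same-anchor ratio of SW620 to HCT116 at EFNB2, which was 0.731 per kb of anchor against 2.60. Scaled by all same-chromosome PETs, the loop calls for HCT116 against LS513 were 3, with EFNA1 (0.463) and EPHB3 (0.491) added as lower, against 1. For SW620 against SW480 the loop calls were 1 with overlapping anchors, 1 with loops of at least 2 PETs and 1 under the false discovery rate of 0.01, against 3. In same-anchor PETs, scaling by chromosome gave 1 call for HCT116 against LS513, against 2, and levels per kb gave 1 call for SW620 against HCT116, against 4. For SW620 against SW480 the same-anchor calls were 2 with overlapping anchors and 0 per kb, against 4. Genes without an anchor in one line have no value per kb, and EFNA1 was then at 1.46. The cause of these changes was not tested otherwise. Scaling by all same-chromosome PETs shifted every log2 loop ratio by 0.66 for SW620 against SW480, -0.67 for HCT116 against LS513, 0.15 for SW620 against LS513 and 0.81 for SW620 against HCT116. No paired analysis was possible because each line has 1 library and no replicate can be left out. At the depth of SW480, a gene needs more than 3 PETs, or more than 216 normalised loop PETs, to stand above what a count of 0 allows.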
